A study of Mus musculus with 8 samples.

Results

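Arteries and veins are lined by endothelial cells that carry different genes, and 10 of the genes best known for that difference were followed here in whole mouse embryos with or without Runx1. The members were chosen by name: Nr2f2, Ephb4 and Nrp2 on the side of the vein, Efnb2, Nrp1, Dll4, Notch1, Notch4, Hey1 and Hey2 on the side of the artery. Every probe set that the platform annotation assigned to 1 of these symbols alone was taken, which gave 28 of the 45037 probe sets tested and 10 of the 18193 genes with a symbol. Nr2f2 had 6 probe sets, Efnb2, Nrp1 and Nrp2 had 4 each, Notch4 had 3, Dll4 and Notch1 had 2 each, and Ephb4, Hey1 and Hey2 had 1 each. Probe sets of a gene share its transcript and are not replicates of each other.

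In the artery, VEGF bound by a receptor complex that includes neuropilin 1 switches on the Notch ligand Dll4, which activates Notch receptors on neighbouring cells. The cleaved receptor then joins the DNA-binding protein RBPJ and turns on the repressors Hey1 and Hey2. Efnb2, a membrane-bound ephrin, marks the artery, and its receptor Ephb4 marks the vein, so that the pair keeps arterial and venous cells apart. In the vein, the nuclear receptor Nr2f2 (COUP-TFII) holds back neuropilin 1 and Notch signalling. Blood stem cells emerge from arterial endothelium, and Runx1 is the transcription factor that this step needs. None of the 10 genes is specific to vessels: Nr2f2 is also made by mesenchyme, the Notch genes and Hey1 by somites and neural tissue, and the neuropilins and ephrins by neurons and neural crest.

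RNA was taken from 4 groups of what the study calls embryo propers, a term for embryos without their membranes. These were Runx1 knockout and wild type at embryonic day 12 (E12 KO and E12 WT) and at embryonic day 8.5 (E8.5 KO and E8.5 WT). Yolk sac endoderm and liver genes, and in replicate 1 of E8.5 WT trophoblast genes, read high at E8.5, as given below. Each group had 2 Affymetrix mouse genome arrays, described by the study as biological replicates. All 4 groups were BALB/c, the knockout is of the whole animal, and the sources used here do not describe its allele. Runx1 knockout embryos lack definitive blood and die in mid-gestation. All values below are log2 of the deposited intensity, given for replicate 1 and then replicate 2. In RNA of a whole embryo, fewer cells of a type and less RNA per cell cannot be told apart.

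The targeted gene was not lower throughout in KO. Of 6 Runx1 probe sets, 3 were lower in E12 KO than in E12 WT and 0 were lower in E8.5 KO than in E8.5 WT. The brightest, 1452531_at, read 7.10 and 6.86 in E12 KO, 7.06 and 6.39 in E12 WT, 6.41 and 6.86 in E8.5 KO, and 6.16 and 5.95 in E8.5 WT. A dimmer one, 1422864_at, read 6.09 and 6.325 in E8.5 KO and 5.26 and 5.085 in E8.5 WT. It was higher in KO there by 1.03 (SE 0.17, adjusted p = 0.844 in the limma fit described below). At E12 it read 4.09 and 4.27 in KO and 4.41 and 4.39 in WT. The other probe sets with lower means in E12 KO overlapped between the groups. The sources used here do not say which part of Runx1 was disrupted or whether these probes fall in it, so the labels could not be checked by them.

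The arrays were not equally alike within their groups. Over all probe sets, replicates correlated at 0.992 in E12 KO, 0.965 in E12 WT, 0.983 in E8.5 KO and 0.927 in E8.5 WT. The median log2 value per array was 5.16 to 5.20 at E12 and 4.96 to 5.01 at E8.5, and the 99th percentile was 10.5 to 11.1 at E12 and 12.2 to 12.3 at E8.5, and how the stages were scaled to each other is not known, which bears on every stage difference below. E8.5 WT replicate 1 stood apart. The mean of 11 trophoblast genes was 6.15 and 5.31 in E8.5 KO, against 8.41 and 5.54 in E8.5 WT, and Tpbpa, a trophoblast marker, read 4.24 and 4.21 in E8.5 KO and 9.52 and 4.15 in E8.5 WT. Peg10, also of the trophoblast list, read 4.21 and 4.36 in E8.5 KO and 6.29 and 6.09 in E8.5 WT. All 11 trophoblast genes had lower means in E8.5 KO, with a median difference of -1.68, and 2 of them did not overlap between the groups. E8.5 WT replicate 2 was high in 12 red cell genes, whose mean was 6.78 and 6.68 in E8.5 KO and 6.84 and 8.42 in E8.5 WT. All 12 had lower means in E8.5 KO. The part of the trophoblast and red cell genes in the results at E8.5 was not tested. Most E8.5 differences are given below also with 1 or the other E8.5 WT array left out. Xist, transcribed from the inactive X chromosome, read 5.33 and 10.3 in E12 KO, 5.29 and 5.12 in E12 WT, 5.93 and 6.05 in E8.5 KO, and 11.5 and 6.25 in E8.5 WT.

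Endothelial markers were measured at both stages, with no detection call at hand to show which were present. The mean of 20 endothelial genes was 6.25 and 6.44 in E12 KO, 6.57 and 6.31 in E12 WT, 6.71 and 6.55 in E8.5 KO, and 6.16 and 6.81 in E8.5 WT, and the groups overlapped within each stage. Kdr, the main VEGF receptor, read 7.98 and 8.13 in E12 KO, 8.34 and 8.38 in E12 WT, 9.74 and 9.40 in E8.5 KO, and 8.77 and 8.95 in E8.5 WT. Pecam1 stayed between 4.16 and 4.94 in all 8 arrays, below the median of every array. Cdh5, the cadherin of endothelial junctions, read 4.99 and 5.12 in E12 KO, 5.84 and 5.18 in E12 WT, 5.70 and 6.54 in E8.5 KO, and 10.1 and 7.08 in E8.5 WT, so that E8.5 WT replicate 1 was the highest array for it and the lowest for the mean of the list.

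**Figure D1:**
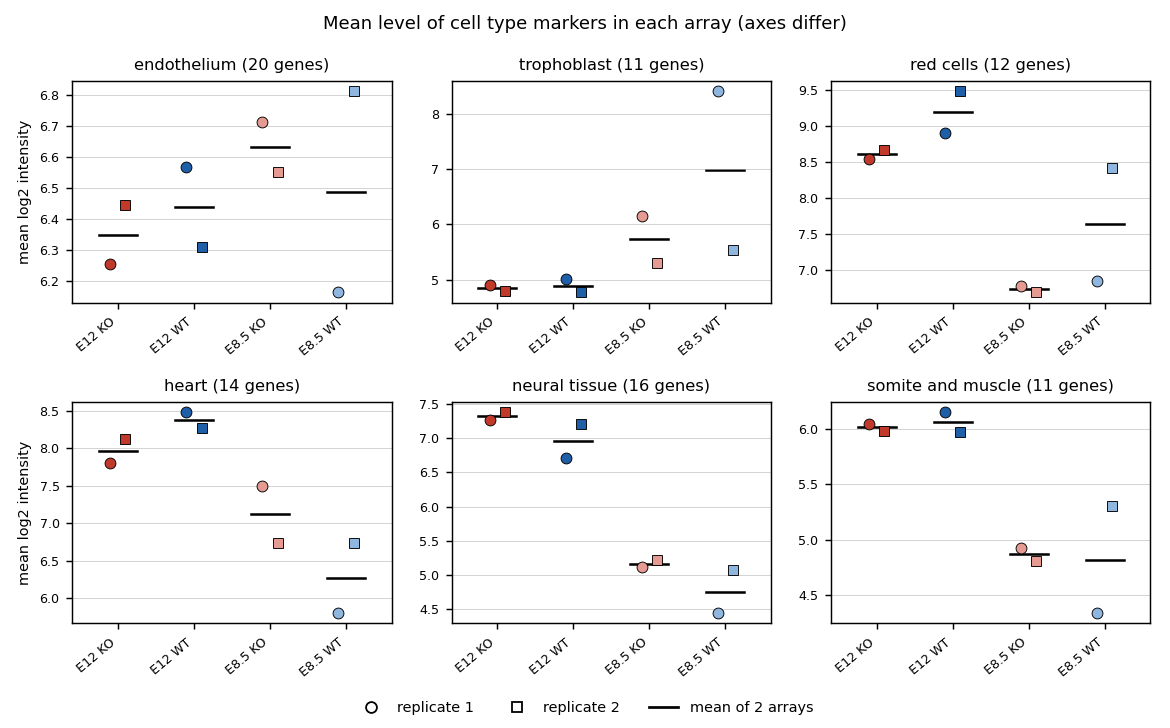
Mean log2 intensity of 6 lists of cell type markers (y axis, a separate scale in each panel) in the 4 groups (x axis), with a circle for replicate 1, a square for replicate 2 and a line at their mean. E8.5 WT replicate 1 lies above the other arrays for the 11 trophoblast genes, at 8.41, and E8.5 WT replicate 2 lies above the other E8.5 arrays for the 12 red cell genes, at 8.42.

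The question put to the arrays was whether the loss of Runx1 changes artery and vein genes. A linear model with 1 mean per group was fitted with limma over all probe sets, the call needed a p below 0.05 after Benjamini-Hochberg adjustment, and the study's own limit, an absolute moderated t above 3 with no adjustment, was read as a second threshold. At E12, 0 of 28 member probe sets were called, where 0.0133% of all probe sets were, and 1 passed the absolute t of 3 (Ephb4, lower in KO), against 0.655% of all. The same 1 was below an unadjusted p of 0.05, against 1.58% of all. At E8.5, 0 of 28 were called, as were 0% of all probe sets. Past the absolute t of 3 there were 4 at E8.5, all of them Nr2f2 and all lower in KO, against 1.18% of all probe sets in that direction, and 6 of the 28 were below an unadjusted p of 0.05, against 4.73% of all. These 4 probe sets belong to 1 gene and count as 1 gene, not as 4 findings.

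The size of the knockout differences was small at E12 and larger at E8.5, where the arrays also scattered more. The median absolute log2 difference over the 28 probe sets was 0.11 at E12, against 0.13 over all probe sets, and 0.39 at E8.5, against 0.16. The signed medians lay near 0, at -0.02 at E12 (0.01 over all probe sets) and 0.04 at E8.5 (-0.02 over all). Both KO arrays lay below both WT arrays for 6 of 28 probe sets at E12 and above for 0, where all probe sets gave 15.8% below and 12.6% above. The same count at E8.5 was 7 below and 4 above, against 16.1% and 13.2% of all.

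**Figure D2:**
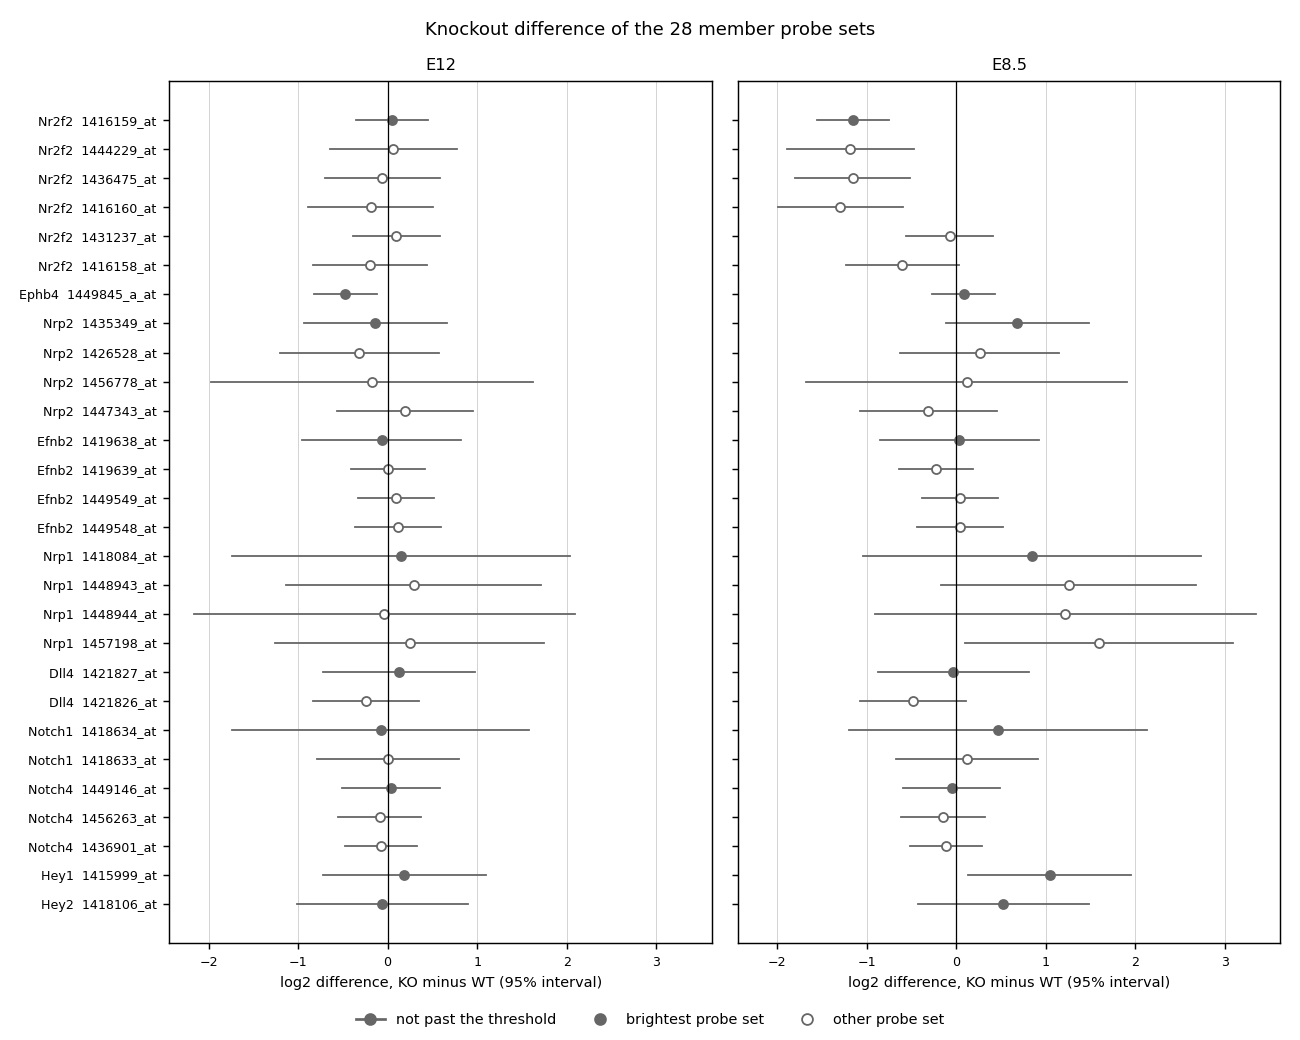
Knockout difference (KO minus WT, log2, x axis) of each of the 28 member probe sets (rows), at E12 in the left panel and at E8.5 in the right, with 95% intervals from the limma fit and a filled point for the brightest probe set of each gene. At these 2 stages, no probe set passed an adjusted p of 0.05, and the Nr2f2 probe set 1416159_at sits at 0.05 at E12 and at -1.16 at E8.5.

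Nr2f2, the nuclear receptor of the vein, had the largest absolute t of the members at E8.5. Its brightest probe set, 1416159_at, read 7.22 and 7.39 in E8.5 KO (7.30 ± 0.12, SD, n = 2) and 8.52 and 8.39 in E8.5 WT (8.46 ± 0.09, SD, n = 2). Both KO arrays were lower than both WT arrays, and the gap between the groups was wider than the gap within either. The difference was -1.16 (SE 0.17, 95% interval -1.56 to -0.75), a KO level of 0.449 times WT, with t = -6.90 and an adjusted p of 0.844, so it did not pass the adjusted threshold.

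Further Nr2f2 probe sets lay on the same side at E8.5. The probe set 1416160_at read 5.05 and 4.80 in E8.5 KO and 6.61 and 5.83 in E8.5 WT, a difference of -1.29 (SE 0.29, t = -4.46). The probe set 1436475_at read 5.40 and 5.25 in E8.5 KO and 6.86 and 6.10 in E8.5 WT, a difference of -1.16 (SE 0.27, t = -4.30). The probe set 1444229_at read 6.02 and 5.55 in E8.5 KO and 6.74 and 7.20 in E8.5 WT, a difference of -1.18 (SE 0.30, t = -3.98). In each of these 3 the KO arrays lay below the WT arrays, with adjusted p-values of 0.959, 0.982 and 0.990. The dimmest probe set, 1416158_at, was also lower in both KO arrays, at 4.36 and 4.24, against 5.27 and 4.52 in E8.5 WT (difference -0.60, SE 0.26), and missed the absolute t of 3. The sixth, 1431237_at, overlapped between the groups, at 4.97 and 4.62 in E8.5 KO and 4.71 and 5.01 in E8.5 WT (difference -0.07, 95% interval -0.56 to 0.42).

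The E8.5 difference of the brightest Nr2f2 probe set kept its direction with either WT array left out. Without E8.5 WT replicate 1, the array high in trophoblast genes, 1416159_at differed by -1.09, and without replicate 2 by -1.22. The size of the other probe sets depended more on which WT array was kept: 1416160_at gave -0.91 without replicate 1 and -1.68 without replicate 2, and 1436475_at gave -0.78 and -1.54 in that order. The remaining pair that lay lower gave -1.41 and -0.95 for 1444229_at, and -0.23 and -0.97 for 1416158_at. A fit with 1 array left in a group takes its spread from the other groups, so only effect sizes are given here. Leaving out 1 WT array cannot address tissue that both WT arrays share. The trophoblast gene Peg10, given above, was higher in both of them than in both KO arrays, and its bearing on Nr2f2 was not tested.

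At E12 the Nr2f2 arrays of KO and WT overlapped for 5 of 6 probe sets. The brightest, 1416159_at, read 8.89 and 8.74 in E12 KO (8.82 ± 0.10) and 8.64 and 8.88 in E12 WT (8.76 ± 0.17). The difference was 0.05 (SE 0.17), and its 95% interval of -0.35 to 0.46 does not reach the size seen at E8.5. The 6 differences at E12 ran between -0.20 and 0.10. Only 1416158_at separated the groups, at 5.71 and 5.43 in E12 KO and 5.82 and 5.72 in E12 WT (difference -0.20, SE 0.26).

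The change of the Nr2f2 knockout difference with stage was tested directly. For 1416159_at the difference at E12 exceeded that at E8.5 by 1.21 (SE 0.24, t = 5.10, 95% interval 0.64 to 1.78), and the adjusted p of this contrast was 1.00. It was the only 1 of the 28 member probe sets past the absolute t of 3 in that contrast, against 0.688% of all probe sets, and 0 of 28 were called, against 0.00444% of all. Below an unadjusted p of 0.05 there were 5 of 28, against 1.87% of all. The other 5 Nr2f2 probe sets gave contrasts between 0.17 (1431237_at) and 1.25 (1444229_at).

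**Figure D3:**
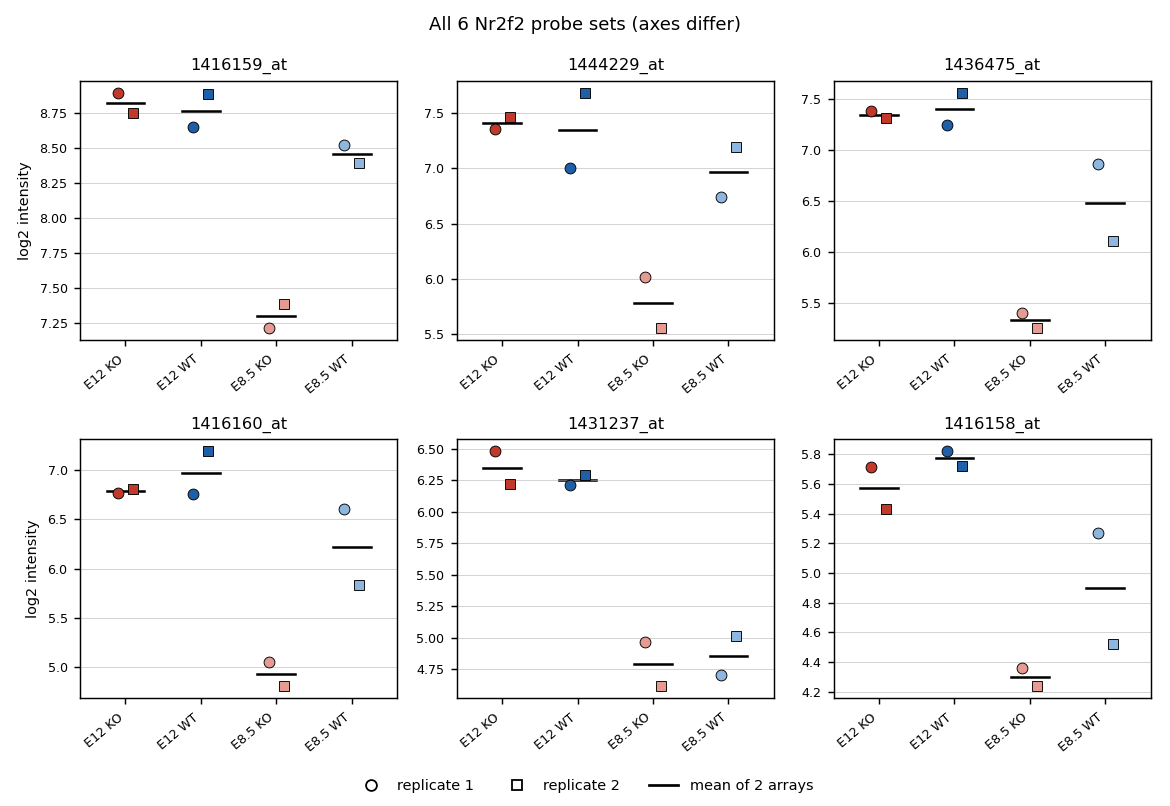
Log2 intensity (y axis, a separate scale in each panel) of the 6 Nr2f2 probe sets in the 4 groups (x axis), with a circle for replicate 1, a square for replicate 2 and a line at their mean. In 5 of the 6 panels both E8.5 KO arrays lie below both E8.5 WT arrays, and in all 6 both E12 KO arrays lie above both E8.5 KO arrays.

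Runx1 binds DNA at the letters TGTGGT or TGCGGT. The promoter of Nr2f2 is shown because this gene had the largest absolute t of the members at E8.5, though it did not pass the adjusted threshold. The 250 bases before its start (RefSeq, GRCm38.p6, chr7:70366747-70366996, minus strand) are written 5′ to 3′ along the gene, with CCAAT, the box bound by NF-Y, in capitals on either strand.
Nr2f2: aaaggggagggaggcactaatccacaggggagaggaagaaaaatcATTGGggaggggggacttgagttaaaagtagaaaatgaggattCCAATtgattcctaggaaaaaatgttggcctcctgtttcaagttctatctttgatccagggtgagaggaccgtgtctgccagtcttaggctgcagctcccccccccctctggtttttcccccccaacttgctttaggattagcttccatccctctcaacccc
CCAAT began 162 bases before the start, with a second copy on the opposite strand, 205 bases before it. RefSeq windows running from 250 bases before to 50 after the start were at hand for 9 of the 10 members, Hey1 being the exception, and for 32851 promoters in all. On both strands, TGTGGT was in 0 of the 9 members and in 16.8% of all promoters, and TGCGGT was in 0 and in 6.45%; these motifs do not overlap each other. CCAAT was in 5 of the 9 (Dll4, Efnb2, Ephb4, Hey2 and Nr2f2), and in 37.4% of all. These are letters in a short window and not measured binding sites.

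Ephb4, the ephrin receptor of the vein, was the only member past the absolute t of 3 at E12. It read 7.09 and 7.22 in E12 KO (7.15 ± 0.09, SD, n = 2) and 7.69 and 7.57 in E12 WT (7.63 ± 0.08, SD, n = 2). Both KO arrays were lower than both WT arrays. The difference was -0.47 (SE 0.15, t = -3.24, 95% interval -0.82 to -0.12), a KO level of 0.720 times WT, and its adjusted p was 1. Leaving out each array in turn gave differences between -0.54 and -0.41, and the absolute t of 3 was no longer passed without either E12 KO array, E12 WT replicate 1 or either E8.5 KO array. It did not pass the absolute t of 3 with each stage fitted alone, with a replicate block within each stage, with a minimum mean log2 of 5 or with an intensity trend in the variance. At E8.5 Ephb4 read 6.59 and 6.65 in KO and 6.51 and 6.56 in WT, which set the KO arrays above the WT arrays by a margin of 0.09 (SE 0.15, 95% interval -0.26 to 0.44). It was 0.06 without E8.5 WT replicate 1 and 0.11 without replicate 2. The mean of the 20 endothelial genes, given above, did not separate the groups at E12. Of these genes 13 had lower and 7 higher means in E12 KO, with a median difference of -0.11 (0.01 over all probe sets). Both KO arrays lay below both WT arrays for 8 and above for 3, against 15.8% and 12.6% of all probe sets. At E8.5 14 of the 20 had higher and 6 lower means in KO, with a median difference of 0.22 (-0.02 over all). In E12 KO all 14 heart genes, all 11 macrophage genes and all 9 megakaryocyte and platelet genes had lower means than in E12 WT, and 14 of 16 neural genes had higher means. The mean of the macrophage genes was 5.11 and 5.09 in E12 KO and 6.37 and 6.23 in E12 WT. The part of these lists in the Ephb4 value was not tested.

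Nrp2, a neuropilin that serves VEGF-C in veins and lymphatics and semaphorins in neurons, was measured by 4 probe sets. The brightest, 1435349_at, read 8.56 and 8.67 in E12 KO, 8.57 and 8.94 in E12 WT, 8.05 and 7.56 in E8.5 KO, and 6.67 and 7.57 in E8.5 WT. The groups overlapped at both stages, with differences of -0.14 at E12 (95% interval -0.93 to 0.66) and 0.68 at E8.5 (95% interval -0.12 to 1.48). At E8.5 the value was 0.23 without WT replicate 1 and 1.13 without WT replicate 2, so it depended on the array that stood apart. Another probe set, 1426528_at, was lower in both E12 KO arrays, at 7.61 and 7.63, against 7.99 and 7.89 in E12 WT (difference -0.32, SE 0.37), and 1456778_at was too (difference -0.17, SE 0.75). The dimmest, 1447343_at, overlapped between KO and WT at both stages. At E8.5 these 3 dimmer probe sets overlapped and changed sign with the WT array left out.

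Efnb2, the ephrin of the artery, did not differ between KO and WT beyond its spread at either stage. Its brightest probe set, 1419638_at, read 8.23 and 8.41 in E12 KO (8.32 ± 0.13) and 8.37 and 8.39 in E12 WT (8.38 ± 0.01). The same probe set read 7.33 and 6.77 in E8.5 KO (7.05 ± 0.40) and 7.56 and 6.46 in E8.5 WT (7.01 ± 0.78). The groups overlapped at both stages, and the differences were -0.07 at E12 (95% interval -0.95 to 0.82) and 0.04 at E8.5 (95% interval -0.85 to 0.93). The E8.5 value was 0.59 without WT replicate 1 and -0.51 without WT replicate 2. Across its 4 probe sets the differences lay between -0.07 and 0.12 at E12 and between -0.22 and 0.04 at E8.5. The probe set at -0.22, 1419639_at, was the only 1 whose E8.5 arrays did not overlap, with 6.96 and 7.14 in KO and 7.16 and 7.38 in WT (-0.33 without WT replicate 1 and -0.11 without WT replicate 2). The intervals of the brightest probe set are wide, so a like level is not shown.

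Nrp1, the co-receptor for VEGF and class 3 semaphorins, could not be read at E8.5 because its WT arrays disagreed. The brightest probe set, 1418084_at, read 9.36 and 9.16 in E8.5 KO and 7.05 and 9.77 in E8.5 WT, so that 1 WT array lay below both KO arrays and the other above them. The difference was 0.85 with both WT arrays (SE 0.79, 95% interval -1.04 to 2.74). It was -0.51 without WT replicate 1 and 2.21 without WT replicate 2. The probe sets 1448943_at (9.32 and 9.07 in E8.5 KO, 6.97 and 8.91 in E8.5 WT) and 1457198_at (7.70 and 7.18 in E8.5 KO, 5.11 and 6.58 in E8.5 WT) did put both KO arrays higher, with differences of 1.26 (SE 0.59) and 1.60 (SE 0.63). These also rested on the low WT array: 1448943_at gave 0.29 without WT replicate 1 and 2.23 without WT replicate 2, and 1457198_at gave 0.86 and 2.33 in that order. The remaining probe set, 1448944_at, overlapped at E8.5, at 7.46 and 8.29 in KO and 5.13 and 8.19 in WT (difference 1.22, SE 0.89). Without WT replicate 1 it gave -0.31, and without WT replicate 2 it gave 2.75. At E12 the groups overlapped for all 4 probe sets, and 1418084_at read 8.14 and 8.38 in KO and 7.82 and 8.40 in WT (difference 0.15, 95% interval -1.73 to 2.04).

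Dll4, the Notch ligand that arterial cells make first, overlapped between the genotypes on its brighter probe set. The probe set 1421827_at read 7.08 and 6.97 in E12 KO, 7.29 and 6.51 in E12 WT, 6.21 and 5.93 in E8.5 KO, and 6.51 and 5.69 in E8.5 WT. In both stages the KO arrays fell between the WT arrays, and the differences were 0.13 at E12 (95% interval -0.72 to 0.97) and -0.03 at E8.5 (95% interval -0.88 to 0.81), the E8.5 value being 0.38 without WT replicate 1 and -0.44 without WT replicate 2. The dimmer probe set, 1421826_at, was lower in both KO arrays at each stage, with 4.83 and 5.14 in E12 KO, 5.25 and 5.21 in E12 WT, 4.86 and 4.57 in E8.5 KO, and 5.51 and 4.90 in E8.5 WT. Its differences were -0.25 at E12 (SE 0.25) and -0.48 at E8.5 (SE 0.25), neither past a threshold, and the E8.5 value was -0.18 without WT replicate 1 and -0.79 without WT replicate 2. The probe sets differed in sign at E12.

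The receptors that bind Dll4 were no different between genotypes beyond their spread. Notch1 (1418634_at) read 8.10 and 8.10 in E12 KO, 8.30 and 8.05 in E12 WT, 7.66 and 7.96 in E8.5 KO, and 6.13 and 8.56 in E8.5 WT. As for Nrp1, the E8.5 WT arrays lay on either side of the KO arrays. The difference was 0.47 with both WT arrays (95% interval -1.19 to 2.13), -0.74 without WT replicate 1 and 1.68 without WT replicate 2. At E12 it was -0.08 (95% interval -1.74 to 1.58). The dimmer Notch1 probe set, 1418633_at, overlapped at both stages, with differences of 0.005 at E12 (SE 0.33) and 0.12 at E8.5 (SE 0.33). Its E8.5 value was -0.32 without WT replicate 1 and 0.57 without WT replicate 2. Notch4, the receptor most restricted to endothelium, was dim: its 3 probe sets lay between the 8.25th and the 48.8th percentile of the arrays' values. The brightest, 1449146_at, read 5.07 and 4.94 in E12 KO, 5.16 and 4.77 in E12 WT, 4.15 and 4.21 in E8.5 KO, and 3.97 and 4.49 in E8.5 WT. KO and WT overlapped at each stage, with differences of 0.04 at E12 (95% interval -0.50 to 0.59) and -0.05 at E8.5 (95% interval -0.60 to 0.50). Without WT replicate 1 the E8.5 value was -0.31, and without WT replicate 2 it was 0.21.

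The Hey repressors are switched on by active Notch signalling. Hey1 (1415999_at) read 8.10 and 7.11 in E8.5 KO (7.60 ± 0.70, SD, n = 2) and 6.33 and 6.79 in E8.5 WT (6.56 ± 0.32, SD, n = 2). Both KO arrays were above both WT arrays, though the KO arrays lay further apart than the WT arrays. The difference was 1.04 (SE 0.38, t = 2.75, 95% interval 0.13 to 1.96), a KO level of 2.06 times WT, with an adjusted p of 1.00; it was 0.82 without WT replicate 1 and 1.27 without WT replicate 2, and it was 0.55 without KO replicate 1 and 1.54 without KO replicate 2. At E12 Hey1 overlapped, at 8.74 and 9.05 in KO and 8.41 and 9.01 in WT (difference 0.19, 95% interval -0.72 to 1.10).

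Hey1 and Hey2 are also made in the heart. The mean of 14 heart genes was 7.49 and 6.74 in E8.5 KO and 5.80 and 6.73 in E8.5 WT. E8.5 WT replicate 1 was lowest. Past the absolute t of 3, 4 of the 14 were higher in KO and 0 lower. Of all 45037 probe sets 929 passed it in either direction, and 1.18% of all passed it lower in KO. The part of heart tissue in the Hey1 value was not tested.

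Hey2 (1418106_at) was dim and, like Nrp1 and Notch1, was set by E8.5 WT replicate 1. It read 4.46 and 4.36 in E12 KO, 4.47 and 4.46 in E12 WT, 5.08 and 5.16 in E8.5 KO, and 3.92 and 5.26 in E8.5 WT. The E8.5 difference was 0.53 (SE 0.40), -0.15 without WT replicate 1 and 1.20 without WT replicate 2. At E12 the difference was -0.06 (SE 0.40), with both KO arrays below both WT arrays by a margin far under the error. The Hey2 promoter is shown because it was the only 1 of the 9 member windows to hold TGGGAA, the core letters bound by the Notch partner RBPJ, which were in 25.6% of all promoters. The 253 bases that end 3 bases into the gene (RefSeq, GRCm38.p6, chr10:30842781-30843033, minus strand) follow 5′ to 3′, with TGGGAA on either strand in capitals.
Hey2: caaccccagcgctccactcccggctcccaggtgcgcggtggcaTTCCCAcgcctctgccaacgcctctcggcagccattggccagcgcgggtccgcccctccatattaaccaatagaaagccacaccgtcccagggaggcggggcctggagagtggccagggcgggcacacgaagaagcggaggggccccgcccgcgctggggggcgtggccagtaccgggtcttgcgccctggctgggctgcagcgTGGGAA
The copy on the gene's strand began 3 bases before the start, and the copy on the opposite strand 207 bases before it.

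**Figure D4:**
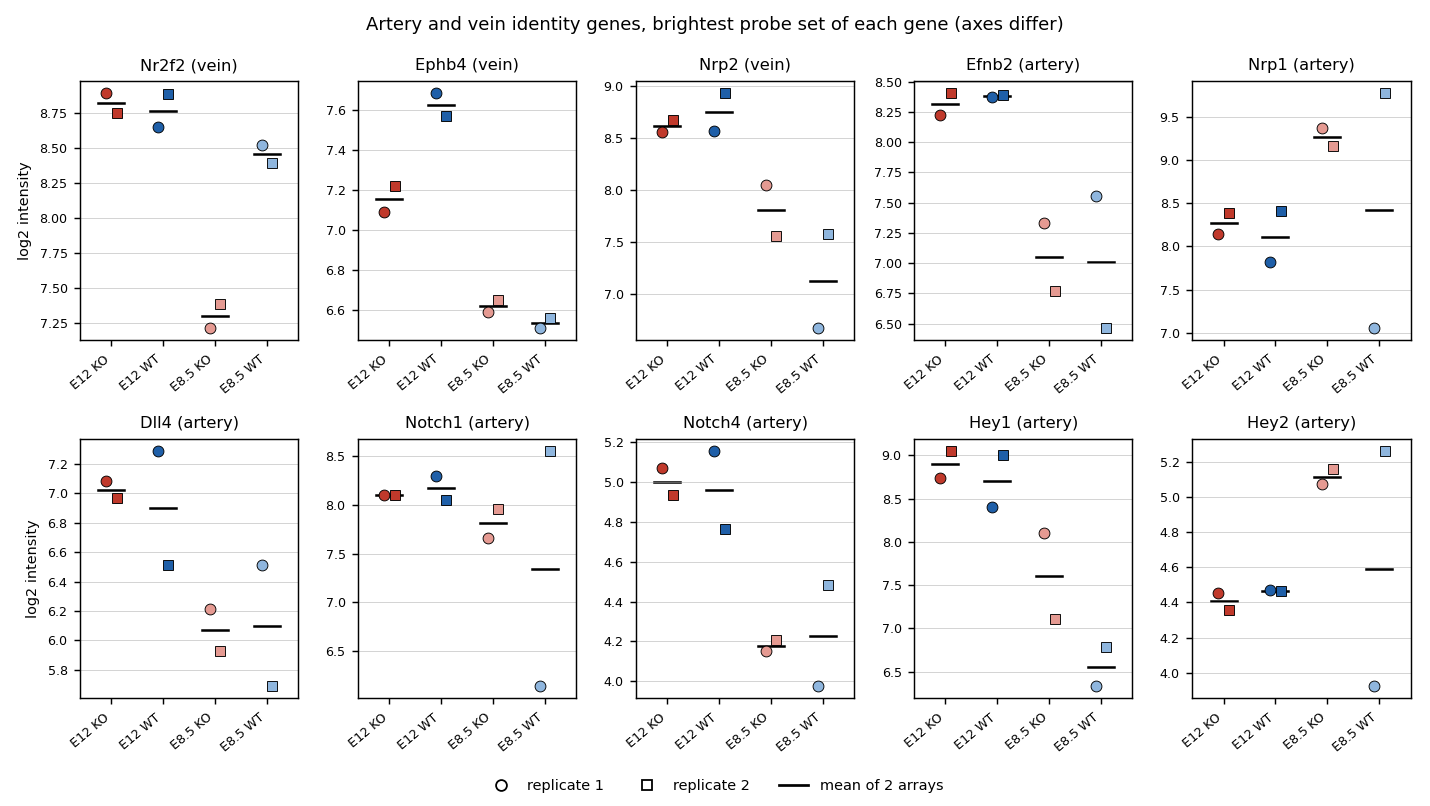
Log2 intensity (y axis, a separate scale in each panel) of the brightest probe set of each of the 10 genes in the 4 groups (x axis), with a circle for replicate 1, a square for replicate 2 and a line at their mean. Nr2f2 is low in both E8.5 KO arrays, and Nrp1, Notch1 and Hey2 have 1 low E8.5 WT array, replicate 1.

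Between stages many member probe sets were called. In KO embryos 12 of 28 member probe sets were called between E12 and E8.5, all higher at E12, where 25.6% of all probe sets were called, 11.6% higher and 14.1% lower. In WT embryos 9 of 28 were called, all higher at E12, against 27.8% of all called, 12.1% higher and 15.7% lower. The KO calls belong to Nr2f2, with all 6 of its probe sets, and to Efnb2, Ephb4, Notch4 and Hey1. The WT calls belong to Efnb2, Nr2f2, Nrp2, Ephb4 and Hey1. Several probe sets of 1 gene count as 1 gene, so fewer genes than probe sets were called. Both E12 arrays lay above both E8.5 arrays for 19 of 28 in KO and below for 5, against 38.7% and 36% of all, and for 14 and 0 in WT, against 30.7% of all each way. The stage differences share their arrays with the knockout differences. The median difference of the 28 probe sets was 0.68 in KO (0.03 over all probe sets) and 0.64 in WT (-0.01 over all), and 23 of 28 were higher at E12 in either genotype, against 52.1% of all in KO and 49.5% of all in WT. Centring each array on its median moved the median of all probe sets to -0.18 in KO and -0.20 in WT. The calls then stood at 8 of 28 in KO, against 25.5% of all probe sets, and 6 of 28 in WT, against 28.3%. These shares of all probe sets count both directions, and the share called higher after centring was not counted. Between stages 15 of 16 neural genes were also higher in KO and 16 of 16 in WT. Of the heart genes 10 of 14 were higher in KO and 13 of 14 in WT. Of 14 yolk sac endoderm and liver genes, 13 were lower at E12 in either genotype. Their median difference was -4.76 in KO and -4.525 in WT. The part of these lists in the member values was not tested.

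Among the vein genes, Ephb4 and Nr2f2 were higher at E12. Ephb4 rose by 1.10 in WT (SE 0.15, adjusted p = 0.00415) and by 0.54 in KO (SE 0.15, adjusted p = 0.0397), a KO call that was lost without any 1 KO array of either stage (adjusted p between 0.139 and 0.211), and with all arrays under a replicate block (0.0571), the block within each stage (0.114), the minimum mean log2 of 5 (0.0933), median centring (0.144) and the intensity trend (0.163). Nr2f2 rose on all 6 probe sets in KO, by 1.28 (1416158_at) to 2.02 (1436475_at), and the brightest by 1.52 (SE 0.17, adjusted p = 0.00265). In WT only 2 of the 6 Nr2f2 probe sets were called, 1431237_at at 1.39 (adjusted p = 0.00528) and 1436475_at at 0.92 (adjusted p = 0.0458), and the brightest gave 0.31 (adjusted p = 0.224). Under quantile normalization that WT value was 1.18 (adjusted p = 0.00682), so the WT result rests on the scaling between stages. On the brightest probe set the E8.5 KO level was below those of the other 3 groups, and E12 KO and E12 WT did not differ beyond their spread. Nrp2 rose in WT on 1435349_at by 1.63 (SE 0.33, adjusted p = 0.0146) and on 1426528_at by 1.45 (adjusted p = 0.0300), and the brightest probe set lost its call without E12 WT replicate 1 (adjusted p = 0.0510) or 2 (adjusted p = 0.0615), under the block within each stage (0.0530) and for the mean of its probe sets (0.148). In KO Nrp2 gave 0.81 (adjusted p = 0.123), with both E12 arrays above both E8.5 arrays.

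Among the artery genes, Hey1 had the largest WT stage difference of the brightest probe sets. It was higher at E12 by 2.15 in WT (SE 0.38, adjusted p = 0.00941), 4.43 times the E8.5 level, and by 1.29 in KO (SE 0.38, adjusted p = 0.0497). The KO value was close to the threshold and lost its call without any 1 of the E12 arrays or without E8.5 KO replicate 2 (adjusted p between 0.0583 and 0.226), and with all arrays under a replicate block (0.0707), the block within each stage (0.201), median centring (0.0832) and the intensity trend (0.0547). Efnb2 rose on 3 of its 4 probe sets in both genotypes. The brightest rose by 1.27 in KO (adjusted p = 0.0486) and by 1.37 in WT (adjusted p = 0.0360), and both calls of that probe set were lost without any 1 of the E12 or E8.5 KO arrays (adjusted p between 0.0524 and 0.230), the WT call also without E8.5 WT replicate 2 (0.83, adjusted p = 0.0578). With all arrays both calls were also lost under the block within each stage (adjusted p = 0.0761 in KO and 0.0534 in WT) and median centring (0.0903 in KO and 0.0630 in WT), the KO call under the intensity trend (0.0541) and the WT call under array weights (0.0580). Its other called probe sets were 1419639_at, by 0.85 in KO and 0.62 in WT, and 1449548_at, by 1.02 in KO and 0.94 in WT. Notch4 rose by 0.82 in KO on 1449146_at (adjusted p = 0.0413), a call lost without any 1 KO array (adjusted p between 0.146 and 0.204) and, with all arrays, under a replicate block (0.0613), quantile normalization (0.0984), median centring (0.0805) and the mean of the gene's probe sets (0.0720). It gave 0.73 in WT (adjusted p = 0.0558), and its dimmer probe sets passed no threshold.

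Dll4, Notch1, Nrp1 and Hey2 were not called between stages. Dll4 (1421827_at) gave 0.95 in KO (adjusted p = 0.0946) and 0.80 in WT (adjusted p = 0.143), and Notch1 (1418634_at) gave 0.29 and 0.83. All 4 Nrp1 probe sets were lower in both E12 KO arrays than in both E8.5 KO arrays, by 0.73 to 1.58, and none was called; the WT arrays overlapped. Hey2 was lower in both E12 KO arrays than in both E8.5 KO arrays, with a difference of -0.71 (adjusted p = 0.238), and overlapped in WT (-0.12). These values rest on a spread that included the E8.5 WT arrays: without either of them, the fit gave the same KO differences with an adjusted p of 0.0172 for Nrp1, 0.0125 for Hey2, 0.0335 for Dll4 and 0.0309 for Nrp2. The WT value of Nrp1 was -1.66 without E8.5 WT replicate 1 and 1.06 without replicate 2. That of Hey2 was -0.80 and 0.55 in that order.

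**Figure D5:**
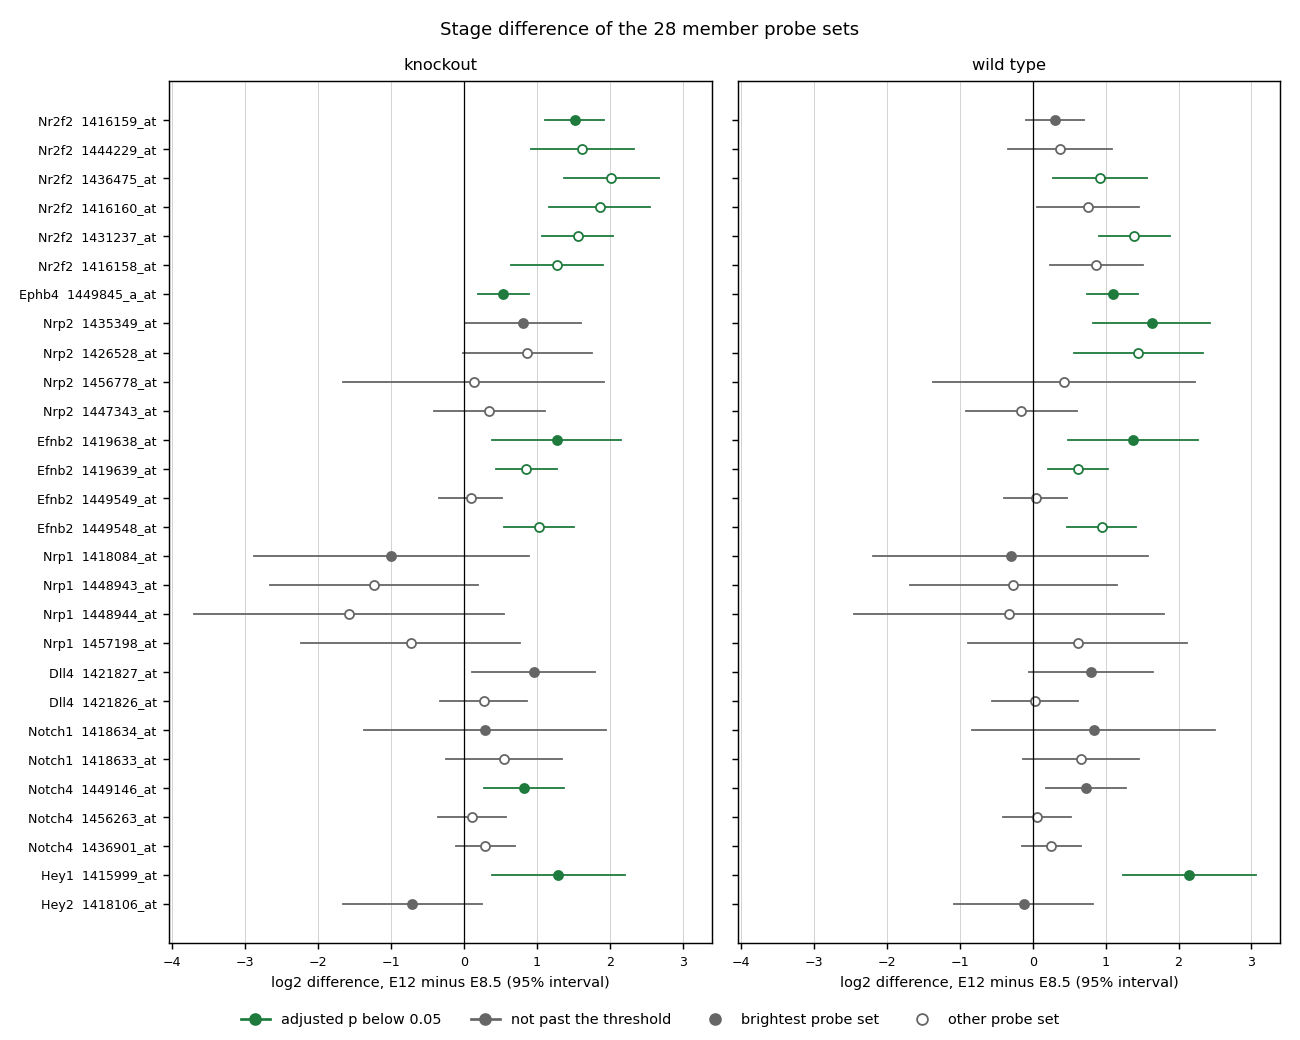
Stage difference (E12 minus E8.5, log2, x axis) of each of the 28 member probe sets (rows), in knockout in the left panel and in wild type in the right, with 95% intervals from the limma fit, a filled point for the brightest probe set of each gene, and green for an adjusted p below 0.05. In KO 12 probe sets are green and in WT 9, all to the right of 0, while the 4 Nrp1 probe sets and Hey2 lie left of 0 in KO.

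Other genes of the same pathways were not called between genotypes. At either stage 0 genes were called in 22 further Notch genes, 20 VEGF and semaphorin genes, 6 ephrin-B and EphB genes, 15 other artery genes and 11 other vein and lymphatic genes. Below an unadjusted p of 0.05 there were, in the same order, 0, 0, 0, 0 and 1 genes at E12. At E8.5 there were 2, 5, 1, 1 and 1. All probe sets gave 1.58% at E12 and 4.73% at E8.5. The pair of largest absolute t in each list is named. At E12 these were, in the Notch list, the protease subunit Psen2 (difference -0.54, adjusted p = 1) and the glycosyltransferase Rfng (-0.39), in the VEGF and semaphorin list Sema3c (0.61) and Kdr (-0.30), and in the ephrin list Efnb1 (-0.66) and Ephb3 (-0.19). The artery list gave the gap junction gene Gja5 (0.19) and Sox17 (-0.19). The vein list gave Emcn, an endothelial sialomucin, at 5.90 and 6.14 in E12 KO and 5.41 and 5.37 in E12 WT (difference 0.63, SE 0.15, t = 4.13, adjusted p = 1), the only 1 of these genes past the absolute t of 3 at E12, and Vwf (-1.49), which platelets also make; the mean of 9 megakaryocyte and platelet genes was 5.08 and 5.02 in E12 KO and 7.06 and 6.91 in E12 WT.

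At E8.5 several partners passed the absolute t of 3 and none the adjusted threshold. In the order of the lists above, 1, 2, 0, 0 and 1 genes passed it higher in KO, and 1, 1, 0, 1 and 0 lower. Of all 45037 probe sets 929 passed it in either direction. Of the 2 higher in the VEGF and semaphorin list only Kdr is named, as only the pair of largest absolute t is given. In the Notch list 10 genes had higher and 12 lower means in KO, with a median difference of -0.07 (-0.02 over all probe sets). Its named pair went opposite ways: Rfng was lower in both KO arrays (-0.97, SE 0.20, adjusted p = 0.926), and the Notch target Hes1 was higher, at 8.37 and 8.15 in KO and 6.66 and 7.50 in WT (1.18, SE 0.28, adjusted p = 0.984). Hes1 gave 0.76 without WT replicate 1 and 1.60 without WT replicate 2. Kdr was higher in both KO arrays (difference 0.71, SE 0.18, adjusted p = 0.990). Epas1, a hypoxia-inducible factor of endothelium, was lower in both, with 8.96 and 8.45 in KO and 10.4 and 9.41 in WT (difference -1.18, SE 0.33, and -0.71 without WT replicate 1 and -1.65 without WT replicate 2). Prox1, which specifies lymphatic endothelium and is also made by liver and heart, was dim and higher in both, with 4.98 and 4.87 in KO and 4.25 and 3.61 in WT (difference 1.00, SE 0.24, and 1.32 without WT replicate 1 and 0.68 without WT replicate 2). The semaphorin receptor Plxna1 was lower in both KO arrays (-0.56, SE 0.15). Leaving out either WT array kept Kdr between 0.62 and 0.80, Rfng between -1.02 and -0.92, and Plxna1 between -0.58 and -0.55. Ephb3 (-0.54), Ephb6 (0.37), Depp1 (0.76, and 1.21 or 0.30 without WT replicate 1 or 2) and Emcn (0.28) completed the pairs and did not pass.

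Between stages the same lists held calls in both directions, as did the probe sets as a whole. Of all probe sets, 11.6% were called higher and 14.1% lower at E12 in KO, and 12.1% and 15.7% in WT. In the Notch list of 22 genes 5 rose and 4 fell in KO, and 6 rose and 2 fell in WT. Lfng, which modifies Notch receptors, was higher at E12 by 1.64 in KO (adjusted p = 0.00545) and 1.75 in WT (adjusted p = 0.00418), and Heyl, a relative of Hey1 and Hey2, by 1.28 in KO (adjusted p = 0.0177) and 1.36 in WT (adjusted p = 0.0134). Hes1 fell by 0.95 in KO (adjusted p = 0.0496) and is not among the WT calls. In the VEGF and semaphorin list of 20 genes 3 rose and 2 fell in KO, and 4 rose and 3 fell in WT. Sema3c was higher at E12 by 3.07 in KO (adjusted p = 0.00249) and 2.41 in WT (adjusted p = 0.00439), and Flt1, the decoy VEGF receptor, fell by 0.83 in KO (adjusted p = 0.0174) and by 1.17 in WT (adjusted p = 0.00565). Kdr fell by 1.52 in KO (adjusted p = 0.00310).

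The artery list split in the same way, with 3 of 15 genes rising and 2 falling in either genotype. The shares of all probe sets given above stand beside this list and those that follow. Depp1 was higher at E12 by 2.38 in KO (adjusted p = 0.00682) and 3.13 in WT (adjusted p = 0.00301), and Mecom by 3.33 in KO and 4.05 in WT. Sox17, an endothelial and endodermal transcription factor, fell by 3.95 in KO (adjusted p = 0.000263) and by 3.61 in WT (adjusted p = 0.000391), while the mean of 14 yolk sac endoderm and liver genes was 6.93 and 7.29 in E12 KO, 7.19 and 6.87 in E12 WT, 10.6 and 11.1 in E8.5 KO, and 10.03 and 10.9 in E8.5 WT. Of the 11 vein and lymphatic genes 1 rose in KO (Emcn, 1.73, adjusted p = 0.00153), and 4 rose and 1 fell in WT. In the ephrin list of 6 genes Efnb3 rose by 1.02 in KO and 1.56 in WT, and Ephb3 rose by 0.78 in KO. The 20 endothelial markers did not move one way, with 2 called higher and 4 lower in KO and 4 higher and 3 lower in WT.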

How the data were processed

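Values were the authors' Robust Multi-array Analysis (RMA) summaries of Affymetrix probe sets, deposited as linear intensities. Per the study's methods, Trizol RNA was amplified in successive rounds before labelling. Joint or separate normalization, the software version, detection calls and pooling of embryos are not stated in those sources. If replicates share material, p-values measure only the spread between these arrays, whose number limits precision.

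The log2 needed no pseudocount. Leaving out 64 control probe sets of 45101 left 45037 to test, with no filter on dim ones. Genes were named by the platform annotation, with symbols brought up to date from RefSeq (GRCm38.p6): 34945 probe sets had 1 symbol, 932 several and 9160 none. The brightest probe set, by mean over 8 arrays, stood for a gene. Differences were fitted with limma 3.58.1 (lmFit, eBayes) in R 4.3.3, tested on simulated data, with 1 mean per group and Benjamini-Hochberg adjustment over all probe sets tested.

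Members and lists were chosen with earlier results of these data known. Every member is named. Between genotypes no gene of the further lists was called, and the 2 of largest absolute t in each list are named. Between stages only some of the called list genes are named. 14 list genes are not reported here. Alternatives were a replicate block, a minimum mean log2 of 5, quantile normalization, median centring, array weights, an intensity trend, single-stage fits, gene means and leaving out arrays. A replicate block within each stage was added after seeing the data.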

Additional observations from a re-analysis of the deposited data

Results flagged for a closer look

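The knockout difference of Ephb4 ran in opposite directions at the 2 stages. Both KO arrays lay below both WT arrays at E12 (-0.47) and above them at E8.5 (0.09), and the difference between the stages was -0.56 (SE 0.21, t = -2.71, 95% interval -1.06 to -0.06). By limma's contrast of the 2 differences, the adjusted p was 1.00, so the difference between stages did not pass the threshold. It lay between -0.62 and -0.50 when each array was left out in turn. The E8.5 margin of 0.09 is below its SE of 0.15. Such a contrast was not particular to Ephb4. Of 20 endothelial genes 13 were lower and 7 higher in it, with a median of -0.55 (0.03 over all probe sets), and 0 were called. Kdr, among them, gave -1.01 (SE 0.25, t = -4.05), with both KO arrays above both WT arrays at E8.5 and below them at E12. The part of endothelial genes in the contrast of Ephb4 was not tested.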

How the results depend on the processing

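Of the results followed under alternatives that kept all 8 arrays, 357 values kept their direction and side of the threshold, 21 lost a call, 9 gained a call and 9 changed sign. No alternative with all arrays called a member between genotypes. Between stages the calls of Ephb4 and Hey1 in WT and of Nr2f2 in KO held under each of these, with adjusted p-values of 0.00258 to 0.0216, 0.00351 to 0.0448 and 0.000225 to 0.0177.

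The numbers of the replicates were not taken as pairing: deviations of same-numbered arrays correlated at 0.173 at E12 and 0.372 at E8.5, and between -0.121 and 0.0756 across stages. With the replicate block, 9 member probe sets were called between stages in WT (27.3% of all probe sets) and 10 in KO (25% of all), and 0 between genotypes. With a block within each stage, 4 were called between stages in WT (25.6% of all), 4 passed the absolute t of 3 in the contrast of the knockout differences, and the WT stage values of Nrp1 and Hey2 turned to 0.12 and 0.26. The absolute t of 3 was passed by 0 members at E12 under that block, the minimum of 5, the trend and the single-stage fit. It was passed by 7 between WT stages under the minimum and under centring, and by 4 (array weights) and 0 (trend) in the contrast of differences. Quantile normalization turned Dll4 at E8.5 to 0.0054 and Nrp1 between WT stages to 0.39. Gene means turned Nr2f2 to -0.038, Efnb2 to 0.039, Dll4 to -0.060 and Notch4 to -0.040 at E12, and Efnb2 to -0.025 at E8.5. The cause was not tested.

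Leaving out each array in turn gave 0 to 0 members called at E12, 0 to 8 at E8.5 (8 without WT replicate 2, against 4.31% of all probe sets, and 0 otherwise), 3 to 19 between KO stages, 3 to 15 between WT stages and 0 to 2 in the contrast. Both E8.5 WT arrays raised the stage counts when left out, to 19 in KO (35.7% of all) and to 15 (replicate 1, 31.5% of all) and 13 (replicate 2, 31.2% of all) in WT. The 3 in KO, without either E12 KO array or E8.5 KO replicate 2, stood against 5.16% to 7.85% of all, and the 3 in WT, without E12 WT replicate 1, against 13.6%. Past the absolute t of 3 the ranges were 0 to 1, 4 to 14, 8 to 19, 7 to 15 and 1 to 11. At E12 the sign turned for Nr2f2 (-0.064 to 0.17), Nrp2 (-0.32 to 0.047), Efnb2 (-0.16 to 0.025), Nrp1 (-0.14 to 0.45), Dll4 (-0.26 to 0.51), Notch1 (-0.20 to 0.047), Notch4 (-0.15 to 0.24) and Hey1 (-0.11 to 0.49). At E8.5 it turned for Nr2f2 1431237_at (-0.25 to 0.11), Efnb2 (-0.51 to 0.59), Nrp1 (-0.51 to 2.21), Dll4 (-0.44 to 0.38), Notch1 (-0.74 to 1.68), Notch4 (-0.31 to 0.21) and Hey2 (-0.15 to 1.20). Between WT stages it turned for Nrp1 (-1.66 to 1.06), Notch1 (-0.38 to 2.05) and Hey2 (-0.80 to 0.55). Arrays give no read depth, and Notch4, Hey2 and other probe sets with a mean below 5 may be near background, for which no detection call was at hand.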
